A study of Homo sapiens with 18 samples.

Results

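The 100 genes described here are antisense noncoding RNAs that carried ribosome-associated footprints in human pluripotent cells, in definitive endoderm or in stem cell derived beta cells. They were taken from 1808 genes whose symbol ends in -AS and a number, among 57808 genes in the table. A gene had to have at least 5 counts in both libraries of one group of FLAG-immunoprecipitated footprints (IP-Ribo), which 216 did, and the 100 with the highest group mean in CPM (counts per 1000000 counts of the library) were kept. The members were thus chosen by their IP-Ribo levels, which are given below as a description without a test. The tests use RNA-seq (RNA) and total ribosome profiling (Ribo), which the choice did not use. The limit falls in a dense range: the last members kept, GABPB1-AS1, ZNF561-AS1 and ERICH6-AS1, had group means of 1.467, 1.462 and 1.462 CPM, and BSG-AS1, MAP3K14-AS1 and LMNTD2-AS1, just left out, had 1.462, 1.461 and 1.461 CPM.

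All cells came from MEL1 INSGFP/W, a human embryonic stem cell line with GFP placed at the insulin locus. Undifferentiated cells (hPSC) and definitive endoderm (DE), both labelled RPL22-FLAG, gave RNA, Ribo and IP-Ribo libraries. Beta-like cells sorted for insulin-driven GFP (GFP+) gave RNA, and GFP+ cells carrying an RPL22-FLAG lentivirus gave IP-Ribo. Cells of the same differentiation without GFP (GFP-) gave RNA alone. Each of the 9 groups had 2 libraries, and nothing in the labels says that the 2 came from separate cultures, so each p-value measures the spread between libraries, which may be technical. RPL22 is a protein of the large ribosomal subunit, so the FLAG tag pulls down ribosomes with the RNA fragments they protect.

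An antisense RNA is transcribed from the strand opposite a named sense gene, here called its partner. Some start beside the promoter of the partner and run away from it or into its first intron, while others lie inside or across the gene body. Such RNAs are known to act on the transcription, splicing or stability of nearby genes, to bind microRNAs or proteins, or to have no known role. Short reading frames in some of them are read by ribosomes, and a footprint on such an RNA shows a protected fragment, not a stable protein. The labels do not say whether reads were counted by strand. Where an antisense RNA and its partner overlap, their reads can therefore not be told apart, and the values below are uncertain to that extent.

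The promoters of 5 members that recur in the results below are shown. No result below was tested against promoter sequence. FOXD3-AS1 and GATA6-AS1 start beside their partners and changed with them, CCDC90B-AS1 starts beside its partner and changed the opposite way, and LY86-AS1 and TRPC7-AS2 had footprints with almost no RNA. Each run holds 250 bases before and 50 bases after the gene's start in RefSeq (GRCh38.p14), 5′ to 3′ on the strand of the gene, and capitals mark CG dinucleotides. They lie at chr1:63322409-63322708 (minus strand), chr18:22168919-22169218 (minus strand), chr11:83285870-83286169 (plus strand), chr6:6622777-6623076 (minus strand) and chr5:136226405-136226704 (plus strand).
FOXD3-AS1: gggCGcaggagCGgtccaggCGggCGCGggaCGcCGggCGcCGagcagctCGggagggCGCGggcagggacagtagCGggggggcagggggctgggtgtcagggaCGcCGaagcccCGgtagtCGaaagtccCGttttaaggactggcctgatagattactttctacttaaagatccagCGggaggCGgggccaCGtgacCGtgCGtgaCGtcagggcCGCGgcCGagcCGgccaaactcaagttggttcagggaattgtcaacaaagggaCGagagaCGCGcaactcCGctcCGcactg
GATA6-AS1: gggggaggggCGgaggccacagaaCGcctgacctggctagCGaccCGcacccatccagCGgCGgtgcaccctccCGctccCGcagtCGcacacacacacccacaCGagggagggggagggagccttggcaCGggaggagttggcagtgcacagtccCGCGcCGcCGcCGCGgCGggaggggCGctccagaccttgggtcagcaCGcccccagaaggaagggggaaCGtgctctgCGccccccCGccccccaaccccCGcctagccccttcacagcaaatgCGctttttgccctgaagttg
CCDC90B-AS1: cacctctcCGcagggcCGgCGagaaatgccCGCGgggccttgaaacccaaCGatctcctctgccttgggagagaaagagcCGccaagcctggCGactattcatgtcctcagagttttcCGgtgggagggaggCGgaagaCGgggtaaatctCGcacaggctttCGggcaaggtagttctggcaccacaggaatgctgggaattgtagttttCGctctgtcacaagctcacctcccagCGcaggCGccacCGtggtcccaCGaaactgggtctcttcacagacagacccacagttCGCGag
LY86-AS1: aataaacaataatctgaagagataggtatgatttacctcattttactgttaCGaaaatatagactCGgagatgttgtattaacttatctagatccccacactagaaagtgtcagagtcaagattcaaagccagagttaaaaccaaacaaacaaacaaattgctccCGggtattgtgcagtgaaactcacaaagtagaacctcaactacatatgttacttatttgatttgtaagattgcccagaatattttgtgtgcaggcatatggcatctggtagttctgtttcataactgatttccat
TRPC7-AS2: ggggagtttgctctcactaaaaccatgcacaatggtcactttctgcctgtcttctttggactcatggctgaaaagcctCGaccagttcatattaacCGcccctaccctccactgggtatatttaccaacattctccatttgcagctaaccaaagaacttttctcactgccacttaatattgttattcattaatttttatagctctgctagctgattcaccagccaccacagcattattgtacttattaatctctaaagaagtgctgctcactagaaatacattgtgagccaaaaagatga
The FOXD3-AS1 promoter holds 33 CG dinucleotides, that of GATA6-AS1 25 and that of CCDC90B-AS1 20. Those of LY86-AS1 and TRPC7-AS2 hold 3 and 2. Promoters were found for 81 members, with a median of 22 CG dinucleotides against 14 over all 27305 promoters in the RefSeq table. Of the 81, 46 (56.8%) held 20 or more, against 41.2% of all promoters. On either strand, TATAAA was in 6.17% of the members' promoters against 11.95% of all, and CCAAT in 28.4% against 35.7%. GATAA, whose letters can lie within longer GATA motifs, was in 21.0% against 23.2%. TGACGTCA, which itself holds a CG, was in 3.70% against 1.98%, among them FOXD3-AS1, and ATGCAAAT was in 1.23% against 1.80%. These are matches of letters in a fixed window. No promoters matched for expression were compared, so whether the shares are particular to the members was not tested.

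Many members start beside the start of their partner. A start and a strand were known in RefSeq for 73 members and their partners. Of these, 30 (41.1%) started within 1 kb of the partner's start, against 28.9% of 1032 other antisense genes, and 13 of the 30 lay upstream of that start. FOXD3-AS1 started 109 bases upstream of FOXD3, GATA6-AS1 621 bases upstream of GATA6, and SETD4-AS1 78 bases upstream of SETD4, all on the opposite strand. A further 40 overlapped the span of the partner from a more distant start, and 3, NUTM2A-AS1, FGD5-AS1 and CCDC18-AS1, lay apart from it. Partners with zinc-finger symbols (ZNF, ZSCAN, ZBED, ZBTB, ZFP or ZKSCAN) belonged to 12 members (12%), against 3.10% of the 1708 other antisense genes. The other antisense genes were not matched to the members for expression. Transcript sequences, exons and reading frames were not analysed here.

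Libraries held 6.61 to 92.53 M counts (M, 1000000). Pluripotency markers (POU5F1, NANOG, SOX2, LIN28A) summed to 6427 and 6836 normalised CPM in hPSC RNA and to 2615 and 2440 in DE RNA, where LIN28A made up most of the sum. Endoderm markers (SOX17, FOXA2, GATA6, CXCR4, CER1) summed to 3065 and 3212 in DE RNA against 17.95 and 16.5 in hPSC RNA. In GFP+ RNA, beta cell markers (INS, IAPP, PDX1, NKX6-1, SLC30A8) summed to 5343 and 5732, and glucagon (GCG) alone reached 30770 and 20160, so the sorted cells also held much RNA of other islet hormones. The first DE Ribo library stood apart: 40.5% of its counts were on protein-coding genes, against 76.0% to 81.7% in the other Ribo libraries, and 1 member, ZBED9-AS1, took 97.2% of all member counts in it. Protein-coding genes held 54.6% and 62.8% of the counts in the 2 GFP+ IP-Ribo libraries and at least 84.1% in the others.

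Footprint levels in IP-Ribo are CPM of the whole library, not per length, so they are compared between groups and not between genes. The highest group mean per member ran from 1.462 to 56.6 CPM with a median of 2.71. GFP+ cells held the highest mean for 42 members, DE for 40 and hPSC for 18. The IP-Ribo libraries held 8.73 and 7.59 M counts in GFP+ cells, 6.61 and 19.9 M in DE, and 20.6 and 23.1 M in hPSC. In the group where they were highest, members had a median of 47, 72.5 and 120.5 counts over the 2 libraries, in the same order. Whether the split depends on depth was not tested. All members together made up 223 and 239 CPM in hPSC, 290 and 242 in DE, and 249.7 and 286 in GFP+ cells. Of the counts on all 1808 antisense genes, these were 54.3% to 73.0%.

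FOXD3-AS1, antisense to the pluripotency forkhead factor FOXD3, had 42.4 and 52.2 CPM in hPSC IP-Ribo, 0.757 and 0.705 in DE, and 0.229 and 0 in GFP+ cells. GATA6-AS1, antisense to the endoderm factor GATA6, had 10.4 and 8.26 CPM in DE, 0.0486 and 0 in hPSC, and 0 in both GFP+ libraries. DLGAP1-AS2, antisense to a postsynaptic scaffold gene, had 14.2 and 9.95 CPM in hPSC, 5.01 and 5.39 in DE, and 0 and 0.132 in GFP+ cells. For these 3 the groups did not overlap between hPSC and DE. CYP1B1-AS1, antisense to a cytochrome P450 gene, had 10.3 and 5.70 CPM in DE, 2.13 and 1.17 in hPSC, and 0.916 and 0.659 in GFP+ cells, so each DE library was above every other library.

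The GFP+ group led for several RNAs, with wide spread. GASK1B-AS1, antisense to a Golgi-associated kinase gene, had 17.2 and 96.0 CPM in GFP+ cells, 10.9 and 2.37 in DE, and 5.59 and 4.98 in hPSC. LY86-AS1, antisense to a gene of lymphocyte surface protein MD-1, had 18.4 and 5.01 CPM in GFP+ cells and at most 0.486 in any other IP-Ribo library. LARGE-AS1 had 4.14 and 12.5 CPM in GFP+ cells, 2.32 and 2.08 in hPSC, and 1.67 and 0.742 in DE. In these 3 both GFP+ libraries were above all hPSC and DE libraries. C2CD4D-AS1 had 15.8 CPM in one GFP+ library and 0 in the other, so its rank rests on 1 library. Among members highest in GFP+ cells, the ratio of the higher to the lower library had a median of 2.31, and 23 of 42 differed more than 2-fold. The median ratio was 1.44 for the 18 highest in hPSC and 1.59 for the 40 highest in DE.

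Other members were present at several stages. ZBED9-AS1, beside a transposase-derived zinc-finger gene, had 59.6 and 19.7 CPM in DE, 26.2 and 23.3 in GFP+ cells, and 17.2 and 11.4 in hPSC. NUTM2B-AS1 had 17.0 and 22.6 CPM in hPSC, 11.98 and 28.1 in DE, and 0.344 and 1.96 in GFP+ cells. NUTM2A-AS1 had 6.96 and 9.51 CPM in hPSC, 8.43 and 13.8 in DE, and 2.99 and 1.08 in GFP+ cells. Both were lower in each GFP+ library than in any hPSC or DE library. They are antisense to members of a near-identical gene family, and counts that are not whole numbers, as estimation among similar transcripts gives, occurred for 80 of the 100 members in IP-Ribo. How reads were divided between these 2 genes, or between OR2A1-AS1 and ARHGEF35-AS1 whose spans overlap on chromosome 7, is uncertain.

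**Figure D1:**
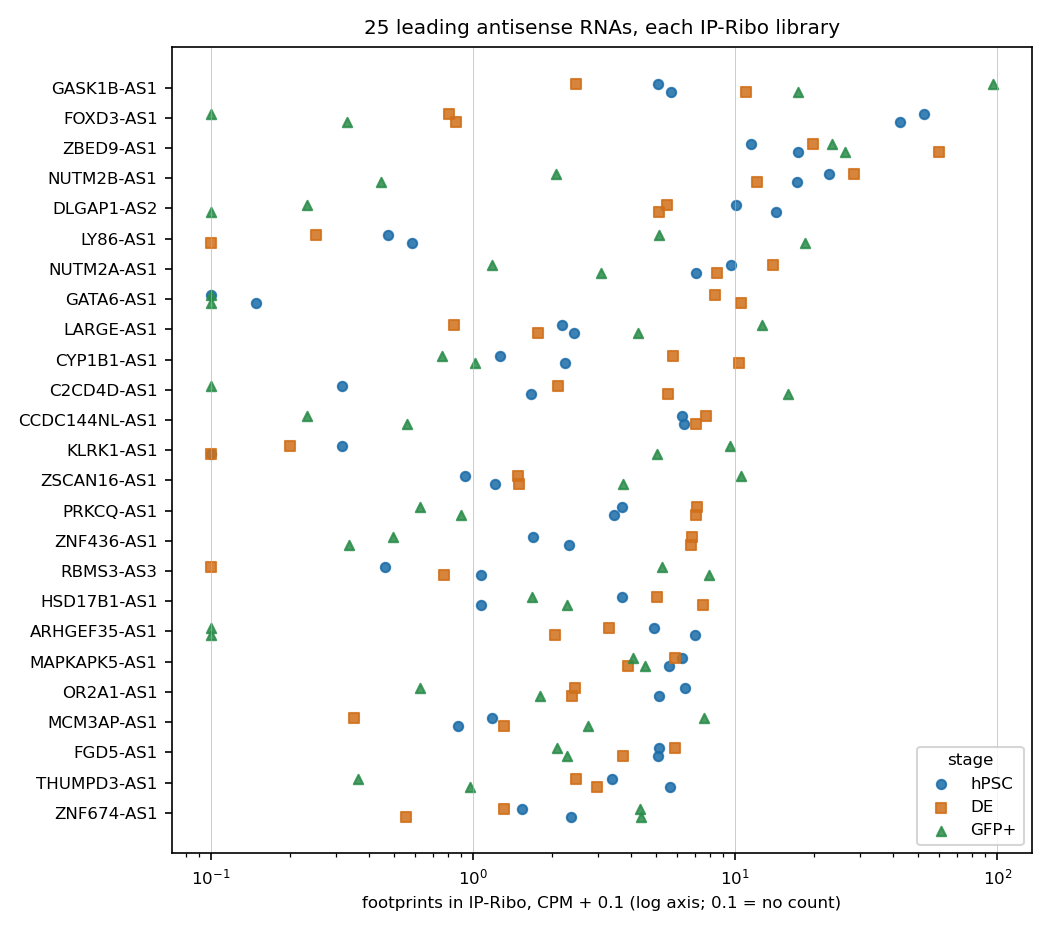
IP-Ribo CPM plus 0.1 (log axis) of the 25 members with the highest group mean, by library, with 2 points per stage. FOXD3-AS1 sits at 42.4 and 52.2 CPM in hPSC and below 1 CPM elsewhere, GATA6-AS1 sits at 10.4 and 8.26 CPM in DE, and the GFP+ points of GASK1B-AS1 (17.2 and 96.0) and C2CD4D-AS1 (15.8 and 0) lie far apart.

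RNA and footprints did not always peak at the same stage. The RNA mean over hPSC, DE and GFP+ cells was highest at the stage of the highest IP-Ribo mean for 13 of 18 members in hPSC, 22 of 40 in DE and 21 of 42 in GFP+ cells. The median RNA level at that same stage was 14.5 normalised CPM for the hPSC set, 12.3 for the DE set and 2.20 for the GFP+ set. Normalised CPM are scaled by TMM factors within each assay. These sets were formed by the IP-Ribo values themselves, and no share over all genes stands beside the counts that follow. They describe the members alone and are no finding about them. For 10 of the 42 members highest in GFP+ IP-Ribo, both GFP+ RNA libraries were under 0.2 normalised CPM, a level chosen after the values were seen. This was so for 1 of 40 in DE and 2 of 18 in hPSC.

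KLRK1-AS1, antisense to a receptor gene of natural killer cells, was one of these. It had 4.92 and 9.45 CPM in GFP+ IP-Ribo, yet 0.143 and 0.107 normalised CPM in GFP+ RNA and 11.3 and 14.5 in GFP- RNA. FZD10-AS1, antisense to a Wnt receptor gene, had 2.42 and 1.58 CPM in GFP+ IP-Ribo. It was at 0 in both GFP+ RNA libraries and at 0.2531 and 0.1175 normalised CPM in GFP- RNA. OBI1-AS1, whose partner encodes a ubiquitin ligase of DNA replication origins, had 1.72 and 1.53 CPM in GFP+ IP-Ribo and was likewise at 0 in GFP+ RNA. In GFP- RNA, OBI1-AS1, LY86-AS1, LARGE-AS1, RBMS3-AS3, DCTN1-AS1, SETD4-AS1 and GRM8-AS1 were at 0 in both libraries. Markers of some other cells were also higher in GFP+ IP-Ribo than in GFP+ RNA, while neural markers summed lower. Progenitor and duct markers (SOX9, CFTR, KRT19, SPP1) summed to 975 and 1112 normalised CPM in GFP+ IP-Ribo against 183 and 299 in GFP+ RNA, and all 4 were higher in both IP-Ribo libraries. CFTR, a chloride channel gene of duct cells, was at 254 and 391 against 8.54 and 8.79, with 399 and 829 in GFP- RNA. KLRK1-AS1 had the same order, while the members at 0 in GFP- RNA did not. Mesenchyme markers (COL1A1, COL3A1, SPARC) summed to 77.1 and 102 against 7.74 and 5.598, with COL3A1 overlapping between the assays. Neural markers (NEUROD4, SOX10, MAP2) went the other way, at 49.8 and 72.4 against 139 and 191, though SOX10 alone was higher in IP-Ribo. The part of other cells in the footprints of members with little RNA was not tested. The footprint and RNA libraries of GFP+ cells also differ in the lentivirus, so cells and assay cannot be told apart here.

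Ratios of IP-Ribo to RNA, both in normalised CPM at the same stage, had lower medians over the members than over protein-coding genes. The same held over LINC genes (long intergenic noncoding RNAs). A gene was counted at a stage only with 10 or more counts in each assay, summed over the 2 libraries. Members with footprints and almost no RNA, such as LY86-AS1 and LARGE-AS1, were thereby left out. The members' median was 0.183 in hPSC over 72 members, 0.176 in DE over 72 and 0.244 in GFP+ cells over 60. The medians were 0.385, 0.359 and 0.559 over protein-coding genes and 0.398, 0.342 and 0.530 over the partners. Over LINC genes they were 0.282, 0.224 and 0.472. ZBED9-AS1 stood at 5.82, 27.7 and 17.5 in the 3 stages, and GASK1B-AS1 at 10.3 in DE and 11.96 in GFP+ cells. FGD5-AS1 stood at 0.0343, 0.0270 and 0.0297. Among the members so counted, a ratio above 1 was found for 6 in hPSC (8.33%), 4 in DE (5.56%) and 16 in GFP+ cells (26.7%). The shares were 16.7%, 10.4% and 27.1% over protein-coding genes and 25.4%, 23.9% and 33.3% over LINC genes. The share of counted members in GFP+ cells was thus near that of protein-coding genes, with members of almost no RNA left out. These ratios use the values that chose the members and are descriptions.

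**Figure D2:**
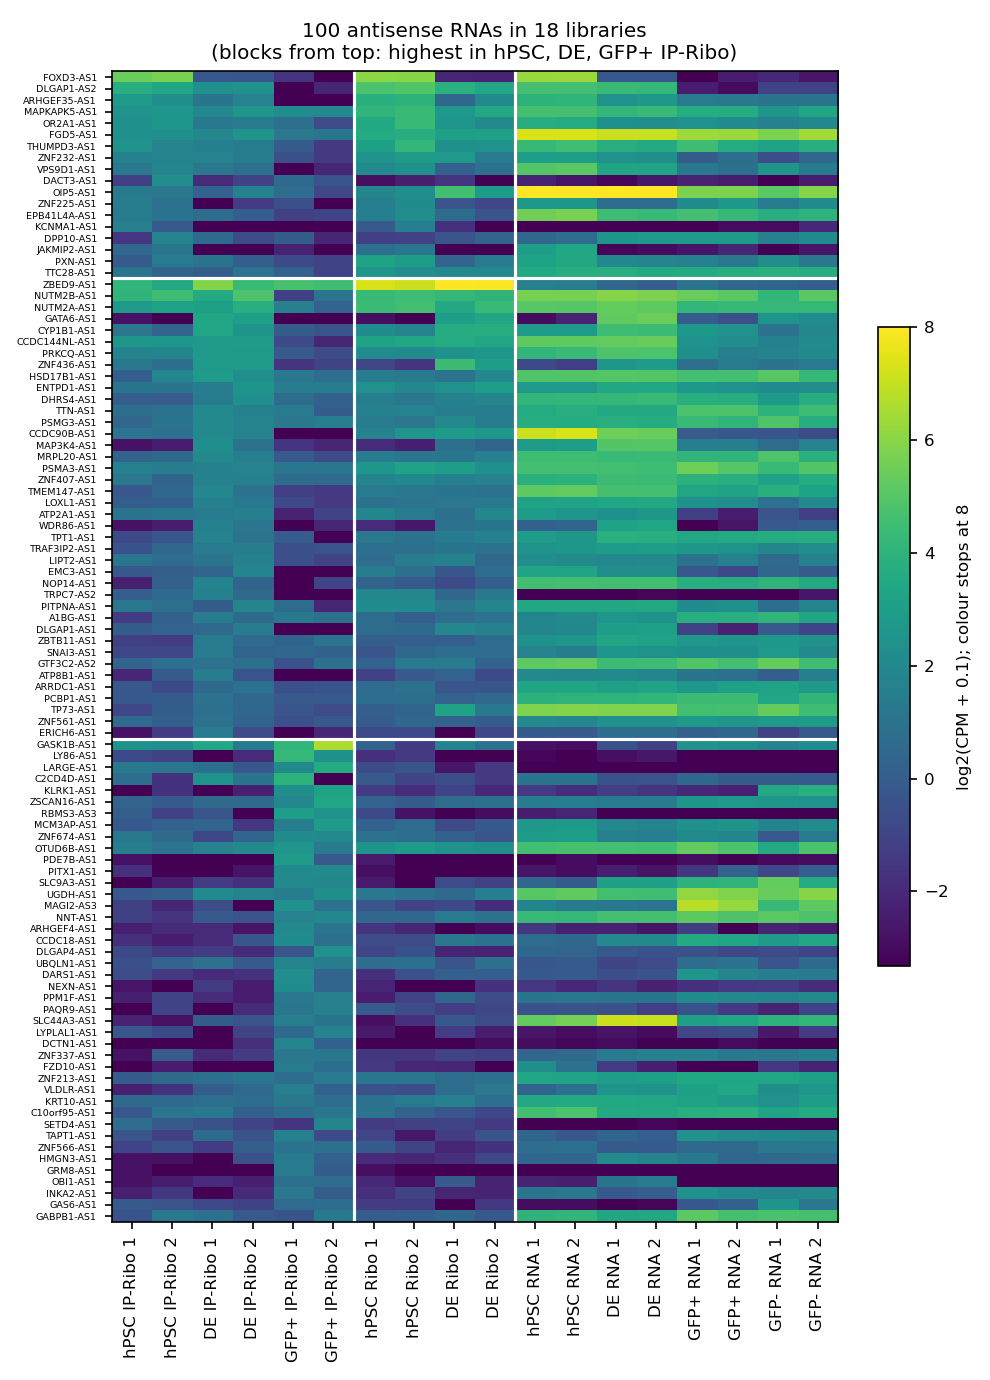
Log2(CPM + 0.1) of the 100 members (rows) in 18 libraries (columns), with IP-Ribo as CPM and Ribo and RNA as normalised CPM. Rows are blocked by the stage of the highest IP-Ribo mean, 18 in hPSC, 40 in DE and 42 in GFP+ cells, and dark rows in the RNA columns such as LARGE-AS1 and GRM8-AS1 carry footprints with no RNA count.

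From hPSC to DE, the share of members called in RNA lay between those of other antisense genes and of all genes. Of 86 members tested in RNA, 31 rose and 29 fell in DE, 69.8% in all (edgeR quasi-likelihood test, Benjamini-Hochberg adjusted p under 0.05), beside 75.6% called among all 20634 genes tested (38.7% higher and 36.8% lower). Called shares were 63.3% over other antisense genes, 64.7% over LINC genes and 80.4% over protein-coding genes. The members' median log2 fold change was 0.01, as it was over all genes tested, with quartiles of -0.66 and 0.64. When all 8 RNA libraries shared one estimate of spread, 33 members were called, and the share over all genes in that fit is not given here.

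GATA6-AS1 had 37.6 and 43.8 normalised CPM in DE RNA and 0.0294 and 0.112 in hPSC RNA. It rose by 9.16 ± 0.22 on the log2 scale (SE, edgeR adjusted p = 2.21e-09), and GATA6 itself rose by 8.69 ± 0.07. The groups did not overlap for either gene. ZNF436-AS1, antisense to a zinc-finger gene, had 6.19 and 7.37 normalised CPM in DE and 0.485 and 0.323 in hPSC, a log2 fold change of 4.12 ± 0.20, with 1.96 ± 0.16 for ZNF436. OBI1-AS1 had 2.03 and 2.53 in DE against 0.118 and 0.0984 in hPSC and rose by 4.43 ± 0.28. All 4 libraries separated by stage for both. WDR86-AS1 (3.19 ± 0.14) and MAP3K4-AS1 (2.12 ± 0.08), the latter antisense to a stress kinase gene, also rose.

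FOXD3-AS1 had 75.3 and 79.5 normalised CPM in hPSC RNA and 0.772 and 0.746 in DE RNA. It fell by 6.62 on the log2 scale (SE 0.09, edgeR adjusted p = 1.25e-12), and FOXD3 fell by 7.40. No DE library came near the hPSC range. JAKMIP2-AS1, antisense to a gene of a neuronal microtubule-binding protein, had 7.73 and 11.0 in hPSC against 0.0131 and 0.0262 in DE and fell by 8.72. FZD10-AS1 had 4.92 and 1.82 in hPSC against 0.301 and 0.0916 in DE, a log2 fold change of -4.04 ± 0.94. Its call was lost without the second DE library (edgeR adjusted p = 0.0635) and without the filter on low counts (0.0993). TTN-AS1, antisense to the titin gene, was at 11.6 and 11.5 in DE and 12.4 and 13.5 in hPSC (log2 fold change -0.11 ± 0.08, edgeR adjusted p = 0.233), while TTN rose by 4.70.

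**Figure D3:**
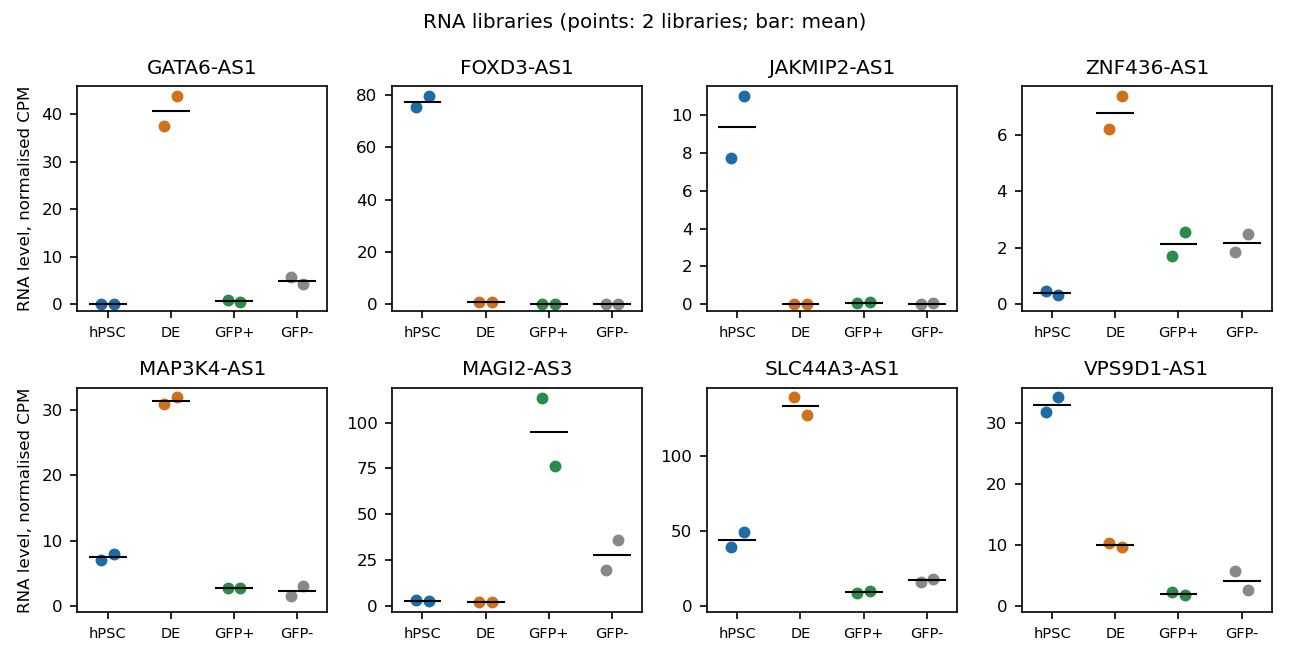
RNA levels in normalised CPM of 8 members in hPSC, DE, GFP+ and GFP- libraries, with 2 points and their mean per group and axes that start at 0. GATA6-AS1, MAP3K4-AS1 and SLC44A3-AS1 peak in DE, FOXD3-AS1, JAKMIP2-AS1 and VPS9D1-AS1 in hPSC, and MAGI2-AS3 in GFP+ cells (114 and 76.1).

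Partners by symbol were in the table for 98 members, and 82 pairs were tested in RNA from hPSC to DE. Member and partner both rose in 19 pairs and both fell in 14. In 5 pairs the member rose and the partner fell, and in 9 the member fell and the partner rose. Of members tested 69.8% were called, and of partners tested 79.6%, so pairs of both kinds would occur without any link. No background for the pair counts is given, and they are a description. Over the 82 pairs the log2 fold changes had a Pearson r of 0.69 and a Spearman rho of 0.38, a description in which the points share libraries and in which GATA6-AS1 and FOXD3-AS1 lie at the ends. For the 25 pairs that start within 1 kb of each other rho was 0.48, with 12 called in the same direction and 4 in opposite ones. For the 33 pairs with overlapping spans and more distant starts rho was 0.17, with 11 in the same direction and 7 in opposite ones. The difference between these 2 sets was not tested.

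The opposite pairs had counts well above zero. CCDC90B-AS1, whose partner encodes a mitochondrial coiled-coil protein, had 136.5 and 163.8 normalised CPM in hPSC RNA and 45.8 and 41.6 in DE RNA (log2 fold change -1.73 ± 0.09). CCDC90B had 63.2 and 63.6 in hPSC and 119.5 and 119.0 in DE and rose by 0.96. The groups separated in both, in opposite order. VPS9D1-AS1 had 31.7 and 34.2 in hPSC and 10.3 and 9.60 in DE (-1.68 ± 0.07), while VPS9D1 had 2.61 and 2.57 in hPSC and 8.28 and 7.81 in DE (1.68 ± 0.12). C10orf95-AS1 had 23.5 and 27.3 in hPSC and 12.2 and 11.5 in DE (-1.05 ± 0.08), while C10orf95 rose by 2.31 ± 0.28 from 0.353 and 0.436. OIP5-AS1, known as Cyrano and as a binder of microRNA miR-7, was at 307 and 297 in DE against 249.7 and 249.7 in hPSC. It rose by 0.33 ± 0.04 while OIP5, a gene of kinetochore assembly, fell by 1.05.

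**Figure D4:**
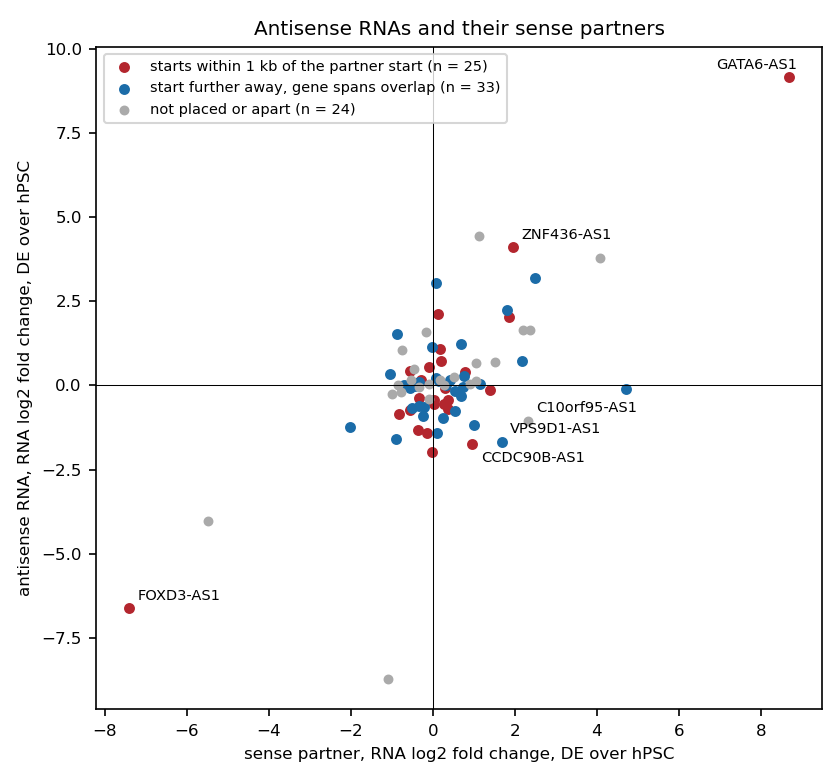
RNA log2 fold change of 82 members (y axis) against their sense partners (x axis), DE over hPSC, coloured by position. GATA6-AS1 and FOXD3-AS1 lie with their partners in opposite corners (9.16 and 8.69, -6.62 and -7.40), while C10orf95-AS1, VPS9D1-AS1 and CCDC90B-AS1 lie below 0 with partners above it.

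Total Ribo showed the same directions for the members it called. Of 81 members tested, 8 were higher and 10 lower in DE, beside 34.1% called among all 15454 genes tested (17.2% higher and 16.9% lower). All 18 were called in the same direction in RNA, whose libraries are separate. The same share over all genes called in Ribo is not given here, and 75.6% of all genes tested were called in RNA. This count is therefore no finding particular to the members. With one library left out, its group has 1 library, assumed to vary like the pair of the other group. Then 2 members, FOXD3-AS1 and GATA6-AS1, were called without the first hPSC Ribo library and only FOXD3-AS1 without the second, where the DE pair, with the library that stood apart, sets the spread. Without the first or the second DE Ribo library 19 and 21 were called.

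In total Ribo FOXD3-AS1 had 64.7 and 62.9 normalised CPM in hPSC and 0.126 and 0.117 in DE. It fell by 9.001 on the log2 scale (SE 0.22, edgeR adjusted p = 0.00056). GATA6-AS1 had 7.88 and 10.01 in DE against 0.0380 and 0 in hPSC, a log2 fold change of 8.64 ± 0.60 resting on 1 count in hPSC (edgeR adjusted p = 0.00141, and 0.0517 without the second hPSC library). JAKMIP2-AS1 had 1.72 and 2.06 in hPSC and no count in DE, so with 3 counts in the DE pair as the floor it was at least 31.8-fold lower. Each of the 3 had its hPSC and DE libraries fully apart. ZNF436-AS1 had 21.4 and 7.90 in DE against 0.430 and 0.225 in hPSC (5.48 ± 0.72), and WDR86-AS1 had 1.83 and 2.04 against 0.152 and 0.0664 (4.11 ± 0.57). MAP3K4-AS1 had 1.71 and 1.14 in DE against 0.152 and 0.0996 in hPSC (3.44 ± 0.60). ZNF225-AS1 had 2.78 and 4.27 in hPSC against 0.693 and 0.438 in DE (-2.67 ± 0.42). Without one or the other hPSC Ribo library the edgeR adjusted p was 0.0884 and 0.106 for JAKMIP2-AS1, 0.0732 and 0.0919 for WDR86-AS1, 0.0810 and 0.126 for ZNF225-AS1, and 0.0944 and 0.119 for ZNF436-AS1.

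Between GFP+ cells and the earlier stages, the share of members called in RNA was near or below that of all genes. Against hPSC, 25 rose and 30 fell of 90 tested (61.1%), beside 61.3% called among all 23321 genes tested (30.4% higher and 30.9% lower). Against DE, 19 rose and 30 fell of 90 (54.4%), beside 60.7% (29.9% higher and 30.9% lower). Over other antisense genes the called shares were 53.2% against hPSC and 51.6% against DE. Both comparisons use the same GFP+ libraries. These held 29.8 and 30.9 M counts against 79.8 to 92.5 M in hPSC and DE RNA, and the bounds below for RNAs at 0 in GFP+ cells are scaled to library size. Here, as in all bulk samples, fewer cells of a type and less RNA per cell cannot be told apart.

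MAGI2-AS3, antisense to a membrane scaffold gene, had 114 and 76.1 normalised CPM in GFP+ RNA, 3.35 and 2.46 in hPSC, 2.21 and 1.92 in DE, and 19.4 and 35.9 in GFP-. It was higher in GFP+ cells by 5.03 ± 0.41 against hPSC (edgeR adjusted p = 4.86e-05) and by 5.52 ± 0.42 against DE. GASK1B-AS1 had 5.22 and 4.85 in GFP+ RNA, 0.0441 and 0.0281 in hPSC and 0.630 and 0.366 in DE, and its log2 fold change against hPSC was 7.04 ± 0.51, with 6.37 ± 0.41 for GASK1B. For both RNAs the GFP+ libraries lay above all hPSC and DE libraries. GAS6-AS1, antisense to a growth-arrest ligand gene, had 0.774 and 1.04 in GFP+ RNA and rose by 4.87 ± 0.76 against hPSC and by 6.69 ± 0.91 against DE, where its counts were near 0.

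DLGAP1-AS2 had 0.0860 and 0.0266 normalised CPM in GFP+ RNA against 24.99 and 24.8 in hPSC and 20.1 and 18.3 in DE. It fell by 8.76 and 8.38 on the log2 scale, while DLGAP1 fell by 1.61 against hPSC. FOXD3-AS1 fell by 10.8 against hPSC. FZD10-AS1, at 0 in both GFP+ libraries, was at least 80.4-fold lower than in hPSC and at least 4.74-fold lower than in DE. The call of FZD10-AS1 against DE was lost on leaving out either GFP+ library, either GFP- library or the first DE library (edgeR adjusted p from 0.0545 to 0.108). OBI1-AS1, also at 0 in GFP+ RNA, was at least 55.0-fold lower than in DE (edgeR adjusted p = 0.000292). WDR86-AS1 had 0 and 0.0533 in GFP+ RNA and fell by 8.36 against DE.

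Opposite calls of member and partner were also found between GFP+ cells and hPSC, among 87 pairs: in 7 the member rose and the partner fell, and in 6 the reverse. Both rose in 13 and both fell in 13. Here 61.1% of members tested and 70.2% of partners tested were called, and no background for the pair counts is given. SLC44A3-AS1, antisense to a choline transporter-like gene, had 8.49 and 10.2 normalised CPM in GFP+ RNA and 39.3 and 49.4 in hPSC (-2.25 ± 0.22), while SLC44A3 rose by 5.84 ± 0.46. VPS9D1-AS1 was opposite to its partner again (-4.03 ± 0.41 and 2.21 ± 0.33), as was C10orf95-AS1 (-0.79 and 1.69). JAKMIP2-AS1 fell by 6.57 while JAKMIP2 rose by 0.76. These comparisons and those from hPSC to DE share the hPSC libraries.

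The sort for insulin-driven GFP separated few members. No member rose and 2 fell in GFP+ against GFP- RNA, of 84 tested (edgeR), beside 2.43% called among all 19797 genes tested (0.0808% higher and 2.35% lower). At an unadjusted p under 0.05, 1 was higher and 6 were lower, and DESeq2 called 1 higher and 4 lower. The shares over all genes at these settings are not given, so these counts are no finding about the members. KLRK1-AS1 had 0.143 and 0.107 normalised CPM in GFP+ and 11.3 and 14.5 in GFP- RNA, a log2 fold change of -6.67 ± 0.57 (edgeR adjusted p = 0.00312). GATA6-AS1 had 0.889 and 0.586 in GFP+ and 5.66 and 4.37 in GFP- RNA, a log2 fold change of -2.77 ± 0.53 (edgeR adjusted p = 0.0420). Both GFP- libraries were above both GFP+ libraries for each. The call of GATA6-AS1 was lost without the first GFP+ library (edgeR adjusted p = 0.146) and without the second (0.382). The number of members called rose without the second GFP- library, and the share over all genes in that fit is not given here. MAGI2-AS3 was not called (1.77 ± 0.43, edgeR adjusted p = 0.0899).

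Markers of other cells moved with the sort. Progenitor and duct markers (SOX9, CFTR, KRT19, SPP1) summed to 183 and 299 normalised CPM in GFP+ and 1410 and 1321 in GFP- RNA, and mesenchyme markers (COL1A1, COL3A1, SPARC) to 7.74 and 5.598 against 162 and 74.9. All 4 and all 3 were higher in both GFP- libraries than in both GFP+ libraries, and none was at 0. Their part in the values of KLRK1-AS1 and GATA6-AS1 was not tested.

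Relative to RNA, total footprints of the members differed widely, from TRPC7-AS2 and ZBED9-AS1, with many footprints for little RNA, to SLC44A3-AS1, with much RNA and few footprints. This comparison scales Ribo and RNA libraries of hPSC and DE together, so a log2 ratio is relative to the typical gene and levels in this section are CPM on that joint scale. In hPSC, 24 members were higher in Ribo and 34 lower of 93 tested, beside 64.7% called among all 21681 genes tested (28.8% higher and 35.9% lower). In DE, 19 were higher and 31 lower of 93, beside 59.6% (30.0% higher and 29.7% lower). The members' median log2 ratio was -0.23 in hPSC, where all genes had -0.29, and -0.40 in DE, where all genes had -0.13. Other antisense genes, of which 518 could be tested, had medians of -0.83 and -0.73. Members had to carry IP-Ribo counts to be chosen, so a higher footprint ratio than that of other antisense genes is no finding. With DESeq2's size factors the all-gene median in hPSC moved from -0.29 to -0.11, and ratios are to be read against it. Without the second hPSC RNA library 37 members were called in hPSC, and without the first DE RNA library 32 in DE.

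TRPC7-AS2, antisense to a cation channel gene, had 6.28 and 6.04 CPM in hPSC Ribo and no count in hPSC RNA. It was at least 541-fold higher in Ribo against the floor of 3 counts over the 2 RNA libraries. It passed the filter on low counts in this fit through its Ribo counts, so its calls here are no support. In DE it had 2.05 and 3.67 in Ribo against 0 and 0.00636 in RNA, and the log2 ratio was 9.29 ± 0.64. The assays were fully apart at both stages. UBQLN1-AS1, antisense to a ubiquilin gene, had 2.54 and 2.76 in hPSC Ribo against 0.381 and 0.430 in RNA (2.70 ± 0.41), and 1.16 and 2.83 against 0.201 and 0.242 in DE (3.21 ± 0.43).

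ZBED9-AS1 had 263 and 228 CPM in hPSC Ribo against 1.54 and 1.42 in RNA, and 16290 and 411 in DE Ribo against 0.623 and 0.452 in RNA. Its log2 ratios were 7.37 ± 1.89 in hPSC (edgeR adjusted p = 0.0211) and 13.9 ± 2.4 in DE (0.00585). The DE value rests on the first DE Ribo library, which stands far above the second. In hPSC the call was lost without the first (edgeR adjusted p = 0.0968) or the second hPSC RNA library (0.0985) and without the filter on low counts (0.0589). In DE RNA itself ZBED9-AS1 was lower than in hPSC (-1.28 ± 0.19).

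At the other end were members with many RNA counts and few footprints. SLC44A3-AS1 had 0.0630 and 0.330 CPM in hPSC Ribo against 20.8 and 26.1 in RNA, a log2 ratio of -6.83 ± 0.37 (edgeR adjusted p = 9.4e-06), and 1.27 and 0.873 against 67.1 and 62.1 in DE (-6.00 ± 0.30). OIP5-AS1 had 5.80 and 7.50 in hPSC Ribo against 131.7 and 131.9 in RNA (-4.30 ± 0.57). MAP3K4-AS1 had 0.252 and 0.165 against 3.73 and 4.16 in hPSC (-4.25 ± 0.31) and 2.82 and 1.90 against 14.8 and 15.5 in DE (-2.73 ± 0.22). In all 3 each Ribo library lay below each RNA library of its stage. NOP14-AS1, antisense to a gene of ribosome assembly, had 0.834 and 1.65 in DE Ribo against 11.5 and 11.6 in RNA (-3.12 ± 0.27).

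**Figure D5:**
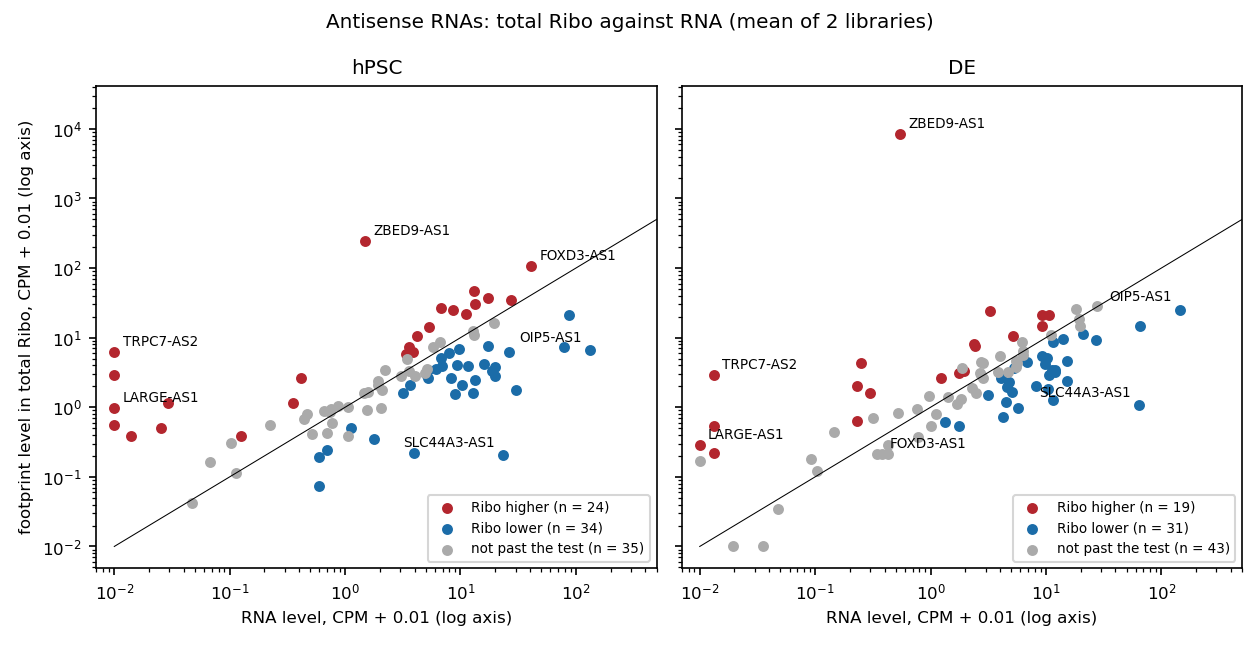
Mean total Ribo level against mean RNA level of 93 members in hPSC (left) and DE (right), CPM + 0.01 on the joint scale, log axes, with the line of equal values. Members without RNA such as TRPC7-AS2 and LARGE-AS1 sit at the left edge above the line, SLC44A3-AS1 and OIP5-AS1 lie below it, and ZBED9-AS1 stands above all others in both panels.

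In 10 members no RNA library reached 0.2 normalised CPM, a level chosen after the values were seen. They were LY86-AS1, LARGE-AS1, RBMS3-AS3, PDE7B-AS1, DACT3-AS1, TRPC7-AS2, DCTN1-AS1, KCNMA1-AS1, SETD4-AS1 and GRM8-AS1. LARGE-AS1 and GRM8-AS1 had no count in any of the 8 RNA libraries. LARGE-AS1 had 0.822 and 1.12 CPM in hPSC Ribo and was at least 86.1-fold higher there than in RNA (edgeR adjusted p = 0.00143). SETD4-AS1 was at least 49.0-fold and KCNMA1-AS1 at least 267-fold higher in hPSC Ribo than in hPSC RNA. LY86-AS1 had 0.315 and 0.434 in hPSC Ribo, no count in DE Ribo and at most 0.0654 normalised CPM in RNA. Passing the filter on low counts in this fit took Ribo counts, so that the 5 tested in hPSC were all higher in Ribo is no support. LARGE-AS1 lies at chr22:33724986-33750817 (GRCh38) within the span of a protein-coding gene, TRPC7-AS2 at chr5:136226655-136316100 and LY86-AS1 at chr6:6346465-6622826.

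The ratio of footprints to RNA was called changed between stages for 1 member, FOXD3-AS1, and not with the replicate block (edgeR adjusted p = 0.164). No member rose and 1 fell in DE against hPSC, of 93 tested (edgeR), beside 0.314% called among all 21681 genes tested (0.24% higher and 0.0738% lower). At an unadjusted p under 0.05, 9 were higher and 5 lower, and DESeq2 called 2 higher and 3 lower. Shares over all genes at these settings are not given, so these counts are no finding about the members. FOXD3-AS1 had 107.3 and 104.1 CPM in hPSC Ribo against 39.7 and 41.97 in RNA, and 0.208 and 0.194 in DE Ribo against 0.371 and 0.363 in RNA. Both Ribo libraries were above both RNA libraries in hPSC, and below both in DE. The change of the log2 ratio was -2.25 ± 0.21 (edgeR adjusted p = 0.0236), and the DE Ribo values rest on 2 and 4 counts. The call was lost on leaving out either library of hPSC Ribo, hPSC RNA or DE RNA (edgeR adjusted p from 0.0528 to 0.199). CCDC90B-AS1 (2.49 ± 0.37, edgeR adjusted p = 0.0595) did not pass.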

How the data were processed

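Footprints and RNA were measured in 18 libraries in 9 groups. The authors deposited one table of estimated counts (expected counts per gene), of which 16.8% to 31.3% per library were not whole. They were rounded before testing. Per the submitters' processing notes, Salmon, DESeq2, UMI-tools, cutadapt and Bowtie were used with the build GRCh38. Versions, the annotation release, and which tool served which library are not given in the sources used here. Of 57808 identifiers, 57030 (98.7%) matched a gene name table. Positions and promoters came from RefSeq tables of GRCh38.p14.

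The members, lists and tests were chosen with earlier results of these data known. The test was edgeR's robust quasi-likelihood test (version 4.0.16, run in R 4.3.3) after filterByExpr and TMM scaling. Benjamini-Hochberg adjustment ran over all genes tested, and a gene was called at an adjusted p under 0.05. Both RNA comparisons from GFP+ cells back to hPSC or DE used one fit of 8 RNA libraries, and footprints against RNA one fit of 8 libraries. The others used 4. Errors of log2 fold changes are standard errors. Where a group had no count, a fold is a bound against 3 counts over the 2 libraries. In total, 8 comparisons were tested, and the script was checked on simulated data.

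Genes were named by a rule: the 10 leading members, the 3 largest calls per comparison and direction with fitted mean log2 CPM not under 0 and libraries that do not overlap, a fixed list, the members beside the threshold, and the pairs called most strongly in opposite directions. CCDC18-AS1, SETD4-AS1, FGD5-AS1, C2CD4D-AS1, OR2A1-AS1, ARHGEF35-AS1 and those members with little RNA that the rule does not name were picked after their values were seen. Replicate numbers were not taken as pairs: replicate differences over genes correlated between groups at -0.104 to 0.104. Alternatives were DESeq2's size factors, no filter, a filter at 1 CPM with 10 counts or more in at least 2 libraries, DESeq2 1.42.0, a replicate block, one fit of 8 RNA libraries, and each library left out. Python 3.11.15, pandas 2.3.3, numpy 2.4.6 and matplotlib 3.10.9 made the other values and figures.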

Additional observations from a re-analysis of the deposited data

Results flagged for a closer look

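The ratio of total footprints to RNA of FOXD3-AS1 differed between DE and hPSC, with a change of -2.25 on the log2 scale (edgeR quasi-likelihood interaction test, adjusted p = 0.0236). Ribo stood above RNA in hPSC and below it in DE, where FOXD3-AS1 had 2 and 4 Ribo counts. The call was lost on leaving out either library of hPSC Ribo, hPSC RNA or DE RNA (edgeR adjusted p from 0.0528 to 0.199) and with the replicate block (0.164).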

How the results depend on the processing

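Of 533 values of single genes under the alternatives, 505 kept their direction and side of the threshold, 28 kept the direction and lost the call, and none reversed. Called members were as follows. For DE against hPSC in RNA, one fit of all 8 RNA libraries gave 33 in place of 60. For GFP+ against GFP-, 5 in place of 2 were called with no filter, with DESeq2, with the replicate block and with the fit of all 8 RNA libraries, and 1 to 26 with one library left out (26 without the second GFP- library). For DE against hPSC in total Ribo, 15 in place of 18 were called with the replicate block and 1 to 21 with one library left out. There the replicate differences correlated at -0.104, and a block with exchanged numbers, added after seeing the data, called 17. For Ribo against RNA, one library left out gave 37 to 66 in hPSC (58 with all) and 32 to 61 in DE (50 with all). The replicate block gave 33 in DE. For the change of that ratio, 2 were called with no filter, 5 with DESeq2 (2 higher and 3 lower), 0 with the replicate block (where FOXD3-AS1 had an edgeR adjusted p of 0.164), and 0 to 19 with one library left out, in place of 1. The cause was not tested. Shares over all genes under these alternatives are not given, so the changes in number cannot be read as particular to the members. Choosing members on TMM-normalised CPM kept 95 of the 100, and asking for 10 counts kept 88. With 2 libraries per group, many IP-Ribo values under 50 counts and no test of IP-Ribo, the precision of low members is limited.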
